A study of Mus musculus with 12 samples.

Results

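Nonsense-mediated mRNA decay (NMD) is the pathway that degrades mRNAs whose translation ends at a stop codon read as premature, and 9 of its factors are described here in MEF cells, the fibroblasts of mouse embryos in culture. The genes are Upf1, Upf2, Upf3a, Upf3b, Smg1, Smg5, Smg6, Smg8 and Smg9. They were found by symbol among the 55536 Ensembl gene IDs of the deposited tables, and all 9 were present in each of the 12 libraries. Control cells were kept for 6 h in high-glucose DMEM with dialyzed serum, and treated cells for 6 h in the same medium with 100 nM halofuginone (HF), which is known to inhibit prolyl-tRNA charging by EPRS. Both conditions were measured in total RNA and in ribosome footprints (RPF, the mRNA fragments that ribosomes protect from RNase), with 3 libraries for each of the 4 groups. No genotype, strain or clone is named for the cells, and nothing says that replicates came from separate cultures, so p-values measure only how these libraries spread, and that spread may be technical.

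In NMD, the RNA helicase UPF1 is recruited to a terminating ribosome and phosphorylated by the kinase SMG1, whose activity SMG8 and SMG9 restrain. UPF2 and the paralogous proteins UPF3A and UPF3B connect UPF1 to exon junction complexes left downstream of the stop codon, SMG6 then cuts the mRNA, and SMG5 helps to bring in deadenylation and decapping. The pathway needs translation of its targets, it is known to be damped when eIF2 is phosphorylated, and mRNAs of several of its own factors are known to be among its substrates.

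Library totals ran from 718096 to 1697554 counts in RNA and from 562794 to 2527791 in footprints. The 9 genes together held 648 to 1646 counts per RNA library and 522 to 2164 per footprint library, which is 0.0807% to 0.102% and 0.0826% to 0.0928% of the totals. Gm42418, a locus that overlaps ribosomal RNA, took 11.8% to 13.7% of RNA control counts and 7.35% to 9.48% of RNA HF counts, and RPF control 1 stood apart with 1.12% against at most 0.100% in the other footprint libraries. Of 11 fibroblast markers, Col1a1, Col1a2, Vim, Fn1 and S100a4 were abundant, Thy1, Pdgfrb, Pdgfra and Col3a1 low, Lum at 0 in every library and Dcn at 0 in RNA. Summed levels of this list ran from 7790 to 8155 CPM (counts scaled to a common library size) in RNA control and 9365 to 9684 in RNA HF libraries, a rise carried by Fn1 (mean 1541 to 4979 CPM). Of the 7 markers tested in RNA (median log2 change −0.68), 1 rose and 4 fell (Col1a1, Col1a2, S100a4 and Pdgfrb). Among all genes tested in RNA 22.2% rose and 21.4% fell. The summed footprints of the list were 15959 to 16925 CPM in control and 12382 to 12715 in HF libraries. The part of these marker changes in the results was not tested. Of the 19 markers of epithelial, leukocyte, endothelial and pluripotent cells, Kdr was the highest in RNA HF cells, with 36 counts over 3 libraries against 2 in control cells, and Epcam, Cdh1, Pecam1, Pou5f1 and Nanog were at 0 in RNA. In these bulk samples fewer cells that express a gene and less RNA per cell cannot be told apart.

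Sequences before the start listed for each gene show how alike or unlike the genes are there. RefSeq windows (GRCm38.p6) matched 9 of 9 genes, and the 250 bases before the start held 50.8% to 72.8% G and C and 12 to 41 CG pairs, against medians of 52.4% and 6 over 32851 windows of the same length. The letters TGATGNAA, the core of elements bound by ATF4 with C/EBP proteins, and TGACGTCA, the cyclic AMP response element, were searched on both strands. They were in 0 of the 9 windows, against 3.45% and 1.55% of all windows. The letters TCGCGAGA, chosen after the sequences were seen, were in the windows of Smg5 and Upf3b and in 0.858% of all windows. The listed start lies inside the annotated gene for Upf1, Upf2, Upf3a, Upf3b, Smg1 and Smg9, and their windows are not printed. Those of Upf3a, Smg1 and Smg9 lie wholly inside the gene. The composition and motif counts above therefore include sequence from within genes. The following windows, 5′ to 3′ with TCGCGAGA on either strand in capitals, belong to Smg5 at chr3:88336010-88336259 (plus strand) and Smg6 at chr11:74925604-74925853 (plus strand). They are shown because these genes encode the effectors that act on the mRNA, and their footprints were called in opposite directions. The Smg6 call was kept in only 4 of 14 alternatives. Upf3b, the other gene with TCGCGAGA, had a log2 footprint difference of −0.05, which did not pass.
Smg5: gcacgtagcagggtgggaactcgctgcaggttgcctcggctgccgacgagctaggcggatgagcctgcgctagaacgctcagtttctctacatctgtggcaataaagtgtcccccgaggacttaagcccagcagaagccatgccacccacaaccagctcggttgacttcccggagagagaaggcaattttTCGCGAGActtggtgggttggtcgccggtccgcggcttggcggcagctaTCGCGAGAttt
Smg6: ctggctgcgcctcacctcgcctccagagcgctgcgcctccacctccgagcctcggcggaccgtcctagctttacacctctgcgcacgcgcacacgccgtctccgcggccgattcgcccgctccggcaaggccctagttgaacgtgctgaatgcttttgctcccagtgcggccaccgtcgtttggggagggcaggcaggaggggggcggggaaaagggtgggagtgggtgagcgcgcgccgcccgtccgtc
Smg5 holds the 8 letters at positions 191 and 240 of its window, and Smg6 has none. No binding or chromatin data bear on these letters here, and they are given as a description.

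The first comparison asks how the transcripts of the pathway differed after 6 h of HF. Smg1 RNA was 2.59-fold higher and Upf1 RNA 1.45-fold higher in HF cells, while Smg5 RNA was 1.37-fold lower. Of the 8 genes tested, 2 rose, 1 fell and 5 did not pass, where 22.2% of all 9145 genes tested rose and 21.4% fell, 43.7% in all (edgeR's quasi-likelihood test, Benjamini-Hochberg adjusted p under 0.05). Called genes were thus about as frequent among the NMD factors as among all genes. The median log2 fold change was 0.30 over the 8 and −0.02 over all genes.

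Smg1 encodes the kinase of the pathway (ENSMUSG00000030655, chromosome 7 from 118131308 to 118244437, GRCm38, introns included). Its RNA was at 62.8, 88.8 and 47.3 CPM in the control libraries and at 146, 179 and 180 in the HF libraries. Every HF library lay above every control library. The log2 fold change was 1.38 (SE 0.18, edgeR adjusted p = 2.9e-09), higher than that of 93.4% of all genes tested. It stayed between 1.19 and 1.60 in the 14 alternative settings and was called in each. Smg9, which encodes a regulator of SMG1, was at 16.9, 24.0 and 8.40 CPM in control and 26.4, 29.5 and 32.4 in HF libraries. Its libraries did not overlap either, but the log2 difference of 0.87 (SE 0.39, edgeR adjusted p = 0.064) did not pass, and it passed at 1.18 only without RNA control 2 (adjusted p = 0.024). Smg8, the partner of SMG9, had 42.7, 57.8 and 35.7 CPM in control and 33.4, 37.3 and 33.6 in HF libraries, with a log2 difference of −0.37 (95% interval −0.92 to 0.18). The 3 genes of the kinase complex thus gave 1 call and values of both signs.

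Upf1 (ENSMUSG00000058301, chromosome 8 from 70331493 to 70353423), the helicase at the centre of the pathway, had 214, 214 and 233 CPM of RNA in control and 309, 348 and 303 in HF libraries. The groups did not overlap, and the log2 fold change was 0.53 (SE 0.12, edgeR adjusted p = 0.00016; 0.48 to 0.59 over the 14 alternatives, called in each). Upf2, which bridges UPF1 and UPF3 proteins, had only 16, 18 and 18 counts in control and 25, 20 and 54 in HF libraries. At this depth its difference of 0.42 had a 95% interval from −0.35 to 1.20. Upf3a went from 40.3, 77.5 and 46.2 CPM to 33.4, 29.5 and 42.4, with overlap between the groups and a log2 difference of −0.58 (SE 0.28, edgeR adjusted p = 0.081). RNA control 2 held the high value. Over the 14 alternatives the difference ran from −0.78 to −0.27, and Upf3a passed in 1 of them, without RNA control 1 (−0.78, edgeR adjusted p = 0.041). Upf3b (ENSMUSG00000036572, chromosome X from 37091678 to 37110471), its paralog on the X chromosome, had 7, 3 and 0 RNA counts in control and 8, 10 and 16 in HF libraries. It did not pass the filter on low counts and was not tested. Without that filter its log2 difference was 1.40 (SE 0.81, edgeR adjusted p = 0.25).

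Smg5 (ENSMUSG00000001415, chromosome 3 from 88336259 to 88362338), an adaptor that brings decay enzymes to phosphorylated UPF1, held 1115 RNA counts over the 3 control libraries. It stood at 385, 379 and 386 CPM in control and at 265, 302 and 276 in HF libraries. All HF libraries were lower, with a log2 fold change of −0.45 (SE 0.11, edgeR adjusted p = 0.00054; −0.51 to −0.38 over the 14 alternatives, called in each). Smg6 (ENSMUSG00000038290, chromosome 11 from 74925854 to 75164448), the endonuclease, had 61.2, 42.3 and 64.1 CPM in control and 69.5, 62.9 and 60.6 in HF libraries, which overlap, and a difference of 0.18 (95% interval −0.27 to 0.63). The RNA of the effectors thus fell for the adaptor and did not pass for the endonuclease. In all, the libraries did not overlap in 4 of the 8 tested NMD factors, namely Smg1, Smg9, Upf1 and Smg5, and in 51.3% of all genes tested.

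**Figure D1:**
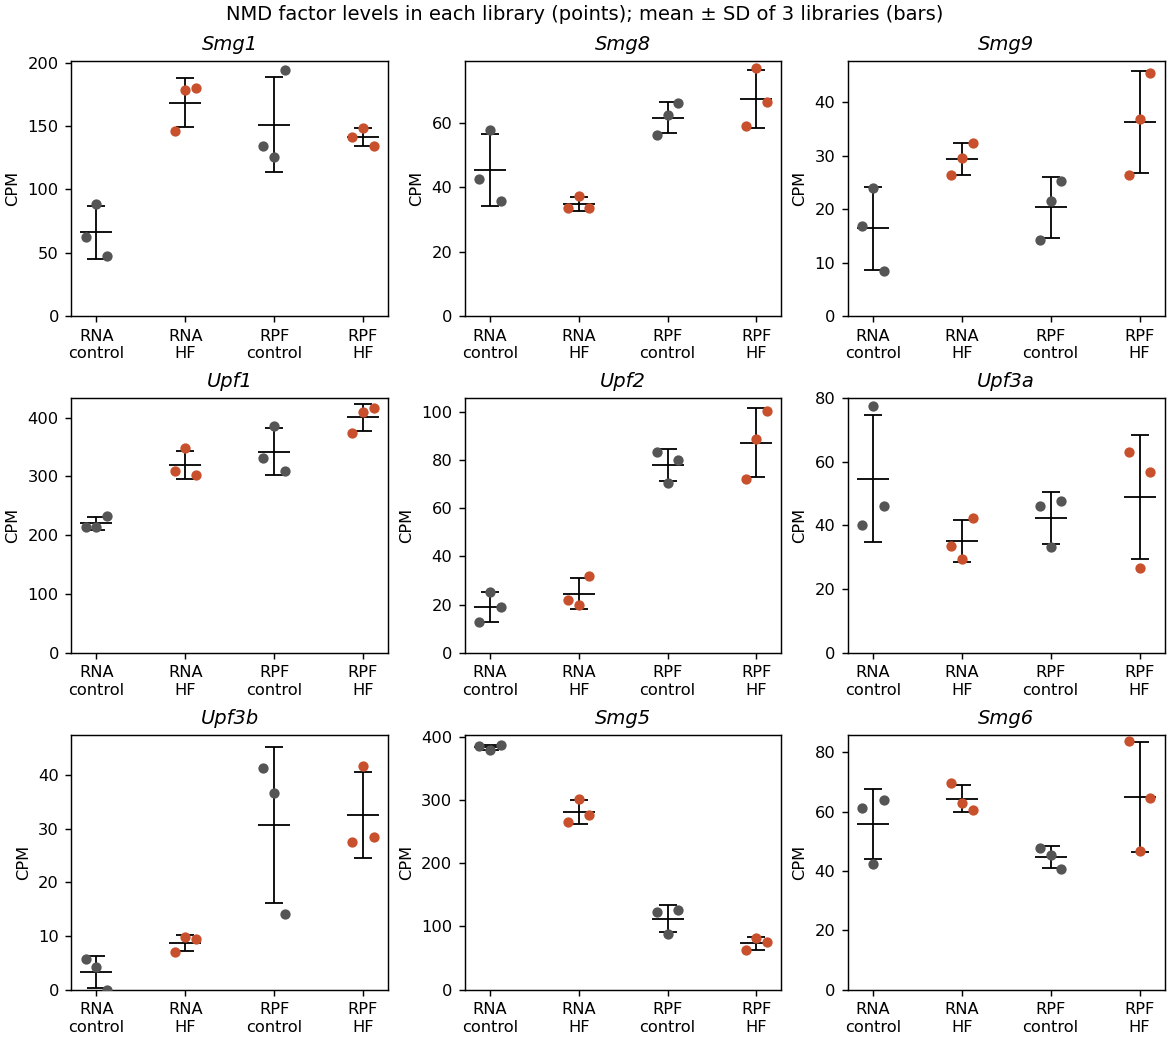
Levels of the 9 NMD factors in CPM (y axis, from 0, scale differs by panel) in total RNA and footprint (RPF) libraries of control (grey) and HF (orange) cells; points are libraries, bars the mean ± SD of 3. Smg1 RNA lies at 47.3 to 88.8 CPM in control and 146 to 180 in HF libraries, while its footprints overlap.

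Some of these genes overlap a neighbour in the RefSeq annotation, and the use of strand in counting is not given in the sources used here. Cers1 at the end of Upf1 held 10 RNA counts in control and 14 in HF cells, and Srr and Hic1 at the ends of Smg6 held 10 and 22 in control and 16 and 79 in HF cells. The snoRNA gene Gm25683 within Smg1 and the lncRNA gene 4930583K01Rik at its start were at 0 in every library. No counts were found for the lncRNA genes Gm40454 within Smg1, Gm51907 within Smg6 and Gm46032 at the start of Upf3a. Reads from these genes therefore cannot be judged.

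Footprints report the ribosomes on the same mRNAs. Smg5 footprints were 1.57-fold lower in HF cells, and those of Smg6 were higher by 0.58 on the log2 scale. Smg1, whose RNA rose the most, showed no such rise in footprints. Of the 9 genes tested, 1 rose, 1 fell and 7 did not pass, where 22.4% of 8373 protein-coding genes rose and 20.9% fell, 43.3% in all. The median log2 fold change was 0.12 over the 9 genes and −0.02 over all.

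Smg1 footprints were at 134, 126 and 194 CPM in control and 141, 149 and 135 in HF libraries. The HF libraries lay within the range of the controls, and the log2 difference was −0.05 (95% interval −0.39 to 0.28, edgeR adjusted p = 0.82). This interval lies below the 1.38 found in RNA. Smg8 had 56.4, 62.5 and 66.0 CPM in control and 59.1, 76.9 and 66.4 in HF libraries, a difference of 0.12 (95% interval −0.31 to 0.54). Smg9 had 14.2, 21.4 and 25.3 CPM in control and 26.4, 36.8 and 45.5 in HF libraries. Its groups did not overlap, yet the difference of 0.84 (SE 0.35, edgeR adjusted p = 0.056) did not pass, and it passed without RPF HF 1 (1.08, adjusted p = 0.030) and with halved counts (0.78, adjusted p = 0.041). Smg9 thus had nearly equal differences in RNA and footprints, on 46 and 88 counts over the 3 control libraries.

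Upf1 footprints were at 332, 386 and 309 CPM in control and 375, 410 and 417 in HF libraries, with overlap, and the log2 difference of 0.21 (SE 0.12, edgeR adjusted p = 0.15) did not pass. Upf2 had 83.1, 70.5 and 80.1 CPM in control and 72.0, 88.7 and 100.5 in HF libraries (0.12, 95% interval −0.27 to 0.51). Upf3a had 46.2, 33.1 and 47.8 CPM in control and 63.0, 26.8 and 56.9 in HF libraries (0.28, 95% interval −0.26 to 0.82). The HF libraries of Upf3a spread widely, from the lowest to the highest value of all 6. Upf3b had 41.4, 36.8 and 14.1 CPM in control, where RPF control 3 was low with 10 counts, and 27.6, 41.8 and 28.4 in HF libraries (−0.05, 95% interval −0.69 to 0.59). Upf3b therefore had few RNA counts, 10 over the control libraries, beside 172 footprint counts.

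Smg5 footprints were at 122, 88.2 and 126 CPM in control and 61.9, 82.0 and 75.8 in HF libraries. All HF libraries lay below all controls, and the log2 fold change was −0.65 (SE 0.20, edgeR adjusted p = 0.0090). The call was lost when RPF control 1 was left out (−0.58, adjusted p = 0.057) and when RPF HF 1 was (−0.49, 0.089). Smg6 footprints were at 47.8, 45.3 and 40.8 CPM in control and 83.8, 46.8 and 64.5 in HF libraries. RPF HF 2 lay within the control range, and the log2 fold change was 0.58 (SE 0.24, edgeR adjusted p = 0.047). The Smg6 call was kept in 4 of 14 alternatives. It was lost without any one of the 3 control libraries, RPF HF 1 or RPF HF 3, with values of 0.29 to 0.61 and adjusted p of 0.053 to 0.45. The value was 0.29 without RPF HF 1. Libraries did not overlap in 2 of the 9 genes, Smg5 and Smg9, against 51.4% of all genes tested.

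**Figure D2:**
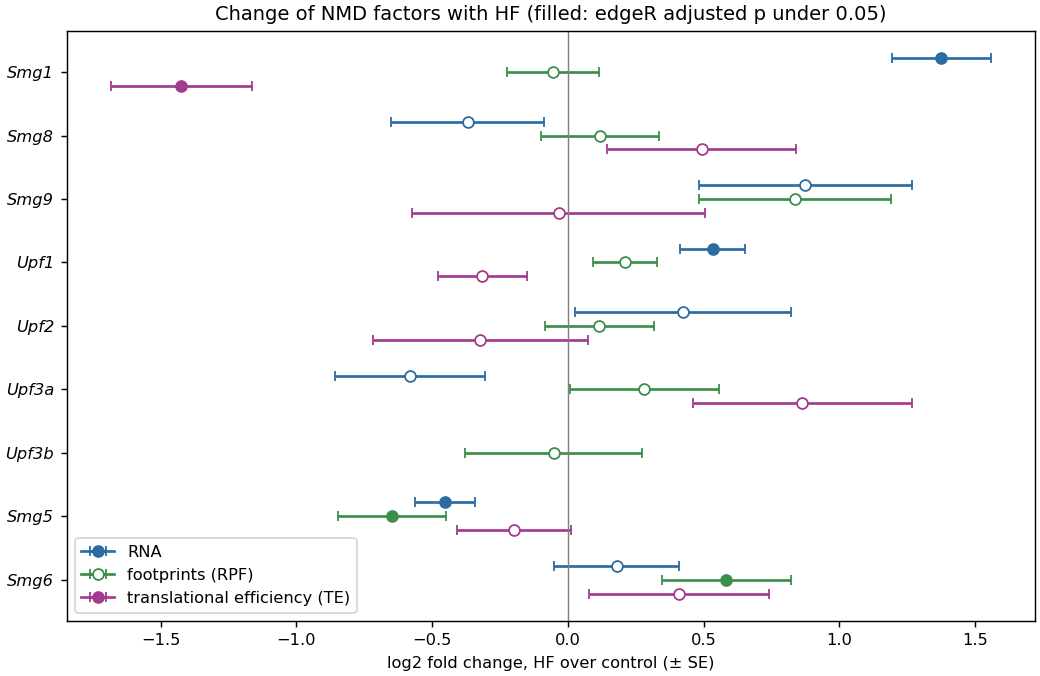
Log2 fold change of HF over control (x axis) with its SE for each NMD factor (y axis) in RNA, footprints and translational efficiency; filled points passed the edgeR test at an adjusted p under 0.05. Smg1 is at 1.38 in RNA, −0.05 in footprints and −1.42 in efficiency, and Upf3b was tested in footprints only.

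Translational efficiency (TE), footprints relative to RNA, was tested over the 12 libraries by the interaction term between assay and treatment. Of 8 NMD factors tested, 0 rose, 1 fell and 7 did not pass, where 6.14% of 7921 genes rose and 8.23% fell, 14.4% in all. The gene that fell was Smg1, by 1.42 on the log2 scale (SE 0.26, edgeR adjusted p = 7.6e-05), which is a 2.68-fold lower ratio of footprints to RNA and a lower value than in all but 3.18% of genes. The call held in each of 20 alternatives, with values from −1.65 to −1.24. Across all genes, RNA rose and TE fell, both past the threshold, in 356 of 7921 genes or 4.49%, and Smg1 was the only NMD factor of the 9 among them. For the other 7 tested genes the differences ran from −0.32 for Upf2 and Upf1 to 0.86 for Upf3a (SE 0.40). Upf3a had an edgeR adjusted p = 0.16, and its unadjusted value of 0.038 was the only one under 0.05 among these genes. DESeq2 also called 0 of the 9 genes higher and 1 lower. The interval for Smg9 (−1.09 to 1.02) leaves room for differences as large as 2-fold in either direction.

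The ratio itself placed the genes far apart. In control cells the log2 ratio of footprint CPM to RNA CPM was 1.72 (SE 0.28) for Upf2, above 97.6% of genes, and −2.15 (SE 0.14) for Smg5, above only 5.81% of them. Smg1 was at 0.81 (SE 0.19, percentile 86.5) in control and at −0.61 (SE 0.18, percentile 36.8) in HF cells. Upf1 was at 0.27 (SE 0.12) and −0.04 (SE 0.11), Smg8 at 0.08 (SE 0.24) and 0.57 (SE 0.25), and Smg9 at −0.09 (SE 0.40) and −0.13 (SE 0.36). Upf3a (−0.71, SE 0.28) and Smg6 (−0.69, SE 0.24) stood nearly together in control cells and at 0.15 and −0.28 in HF cells. The median over all genes was −0.27 in control and −0.25 in HF cells. The order in control cells was Upf2, Smg1, Upf1, Smg8, Smg9, Smg6, Upf3a and Smg5, and from Upf1 to Upf3a each gene lay within the summed SEs of its neighbour. RNA counts may include untranslated regions, whose length differs between genes, so this order depends on the counted feature. No transcript lengths were used, and levels of different genes are therefore not ranked.

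**Figure D3:**
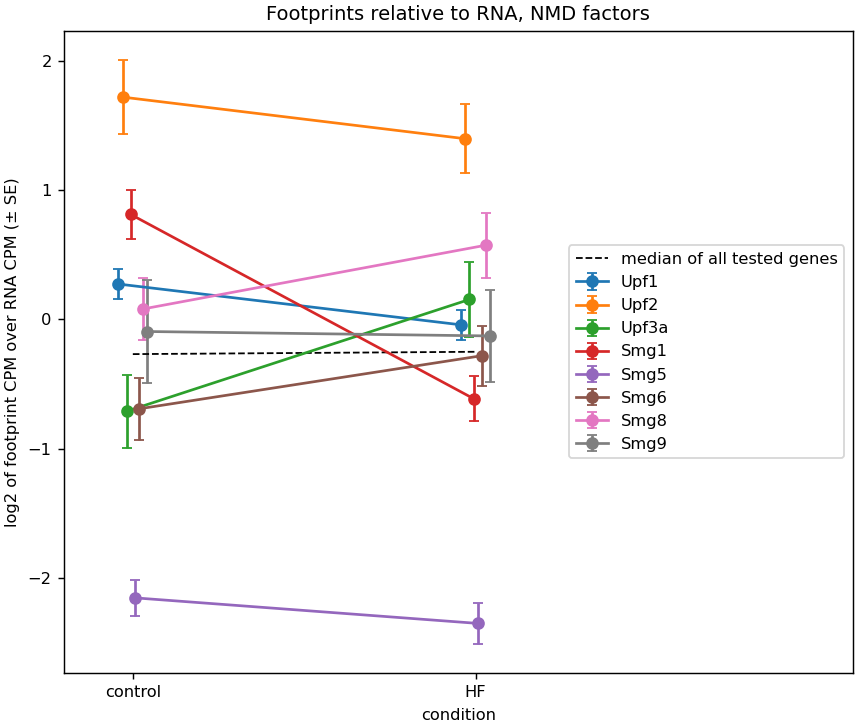
Log2 ratio of footprint CPM to RNA CPM (y axis, ± SE from the 12-library fit) in control and HF cells (x axis) for the 8 NMD factors tested in both assays, with the median of 7921 genes dashed. Smg1 goes from 0.81 to −0.61, Smg5 stays lowest at −2.15 and −2.35, and Upf2 highest at 1.72 and 1.40.

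**Figure D4:**
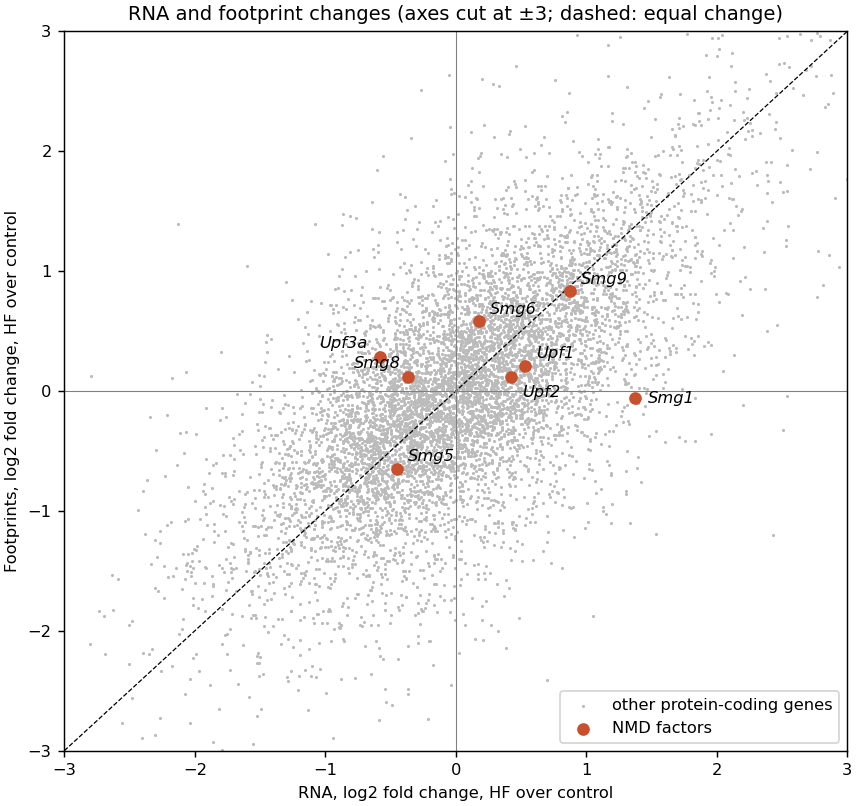
Log2 fold change in RNA (x axis) and in footprints (y axis) for protein-coding genes tested in both (grey, those within ±3) and for NMD factors (orange); the dashed line marks equal change. Smg1 lies right of the line at 1.38 and −0.05, while Smg9 at 0.87 and 0.84 lies on it.

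Genes that work beside the 9 factors were counted from lists. Among 10 other NMD effectors 1 rose and 3 fell in RNA, where 43.7% of all genes were called, 1 rose and 5 fell in footprints (43.3% of all genes), and 1 rose and 0 fell in TE (14.4%). The TE call was Sec13 (0.65, SE 0.18), and this gene fell in RNA. The helicase Dhx34 rose in RNA (1.63, SE 0.33) and footprints (1.30, SE 0.30). Telo2 and Tti1, cochaperone subunits that serve SMG1 and related kinases, fell in footprints (−1.12 and −0.95) and in RNA (−0.81 and −0.98). The footprint call of Telo2 ended without RPF control 1 (adjusted p = 0.062), and the RNA calls ended without RNA control 3 (adjusted p = 0.060 for Telo2 and 0.10 for Tti1). Tti1 was also lost in RNA without RNA HF 1 or RNA HF 3, and Telo2 without RNA HF 2. The 3 lower in RNA became 1 without RNA control 3 or RNA HF 3, and 2 without RNA control 1, RNA HF 1 or RNA HF 2. The 5 lower in footprints became 3 without RPF control 1, and 4 without RPF control 2 or RPF HF 1. The helicase Mov10 had the largest footprint change among the called genes of this list, −1.66 (SE 0.38).

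SMG1 belongs to the kinases related to phosphatidylinositol 3-kinase. Of 6 such genes, Smg1 included, 4 rose in RNA and 0 fell (median 0.63; 22.2% of all genes rose), 0 rose and 1 fell in footprints (20.9% fell), and 0 rose and 2 fell in TE (8.23% fell). Atr, a DNA damage kinase, rose by 1.51 in RNA (SE 0.42, edgeR adjusted p = 0.0022). Atm, another, rose by 0.98 in RNA (SE 0.38, adjusted p = 0.030), fell by 0.73 in footprints (SE 0.19, adjusted p = 0.0021) and fell by 1.73 in TE (SE 0.36, adjusted p = 0.00055). Mtor did not pass in RNA (0.28), footprints (0.05) or TE (−0.23). The RNA calls of Atm and of Trrap (0.27) were each lost without RNA control 1 (0.88 and 0.17, adjusted p = 0.094 and 0.28), which left 2 of the 6 genes called. The Atm call was also lost without RNA control 2 or RNA HF 3, and that of Trrap without RNA HF 1 or RNA HF 2.

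The genes that end translation and bind mRNA ends had 2 of 8 higher and 3 lower in RNA, 0 higher and 4 lower in footprints, and 0 higher and 3 lower in TE. Called genes were 43.7%, 43.3% and 14.4% of all genes, so that the RNA and footprint counts of both directions together lay near the background. Lower genes alone were 21.4%, 20.9% and 8.23% of all genes, and the footprint and TE calls of this list were all lower. This was not tested for the list. Without RPF HF 3, 1 gene was higher in TE. Gspt1, which encodes the release factor eRF3a, had 250, 273 and 206 CPM of RNA in control and 251, 202 and 259 in HF libraries. Its footprints were at 714, 640 and 676 CPM in control and 327, 320 and 267 in HF libraries, a log2 change of −1.14 (SE 0.11, edgeR adjusted p = 4e-10), with TE at −1.11 (SE 0.17). Etf1, which encodes the partner release factor eRF1, rose in RNA (0.73, SE 0.10) and fell in TE (−0.58, SE 0.14). Pabpc1, which encodes the cytoplasmic poly(A)-binding protein, fell in RNA, from a mean of 1231 to 615 CPM (SE of the log2 change 0.09), and in footprints (−0.69, SE 0.11). The cap-binding subunit Ncbp2 also fell in both (−1.11 and −1.38).

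The exon junction complex list had 0 of 10 higher and 3 lower in RNA and 1 higher and 2 lower in footprints, fewer called than the 43.7% and 43.3% of all genes. Sap18 (−0.94 and −1.42) and Acin1 (−0.64 and −0.58), of its peripheral part, fell in both, although the RNA call of Sap18 was lost when RNA control 3 was left out (adjusted p = 0.11) and when RNA HF 3 was (0.095). The core gene Casc3 rose in footprints (0.64, SE 0.19), and this ended without RPF HF 1 (0.44, adjusted p = 0.11). Without RNA control 3 only 1 of the 10 was lower in RNA, and without RNA control 1 there was 1 higher. The footprint count of 1 higher became 0 or 2 without RPF control 2, RPF HF 1 or RPF HF 2. In TE 1 of 10 was higher and 0 lower, where 14.4% of all genes were called. This gene was Magoh at 0.78, which fell in RNA (−0.56) and did not pass in footprints (0.22). Its RNA call was lost without RNA control 3 or RNA HF 2. Its TE call was lost in 6 of 12 fits without 1 library, among them that without RNA control 3 (0.59, edgeR adjusted p = 0.16).

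Decapping and 5′ decay genes had 3 of 13 higher and 2 lower in RNA, 5 of 14 higher and 1 lower in footprints, and 2 of 13 higher and 0 lower in TE. The RNA and footprint counts were near the 43.7% and 43.3% called over all genes (14.4% in TE). Lsm4, a subunit of the ring that binds deadenylated mRNA ends, rose in footprints (1.41, SE 0.21) and TE (1.58, SE 0.29) with RNA at −0.16, while Lsm2 of the same ring fell in RNA (−1.53, SE 0.18). Dcp2, the decapping enzyme, rose in RNA (0.60, SE 0.21) and footprints (1.27, SE 0.35), and its TE difference of 0.65 did not pass. The helicase Ddx6 also rose in both RNA (0.74) and footprints (0.77). The 5 higher in footprints became 3 without RPF control 1 or RPF control 2, and the 3 higher in RNA became 1 without RNA control 1. The 2 lower in RNA became 1 without RNA control 2, RNA control 3 or RNA HF 3, and the 1 lower in footprints became 0 without RPF control 2, RPF control 3, RPF HF 1 or RPF HF 2. Lsm2 rose in TE (1.01, SE 0.29), a call lost without RNA control 3, RPF control 1 or RPF HF 3.

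Deadenylation genes had 5 of 13 higher and 2 lower in RNA, 2 higher and 0 lower in footprints, and 1 in each direction in TE. Over all genes 43.7%, 43.3% and 14.4% were called, so that the footprint count lay under the background and the others near it. Pan2 rose in RNA (1.21, SE 0.32) and footprints (1.16, SE 0.31). Cnot9, a CCR4-NOT subunit, also rose in RNA (0.44, SE 0.13) and footprints (1.08, SE 0.17). The 2 lower in RNA were 0 or 1 without RNA control 1, 2 or 3, RNA HF 1 or RNA HF 3. In TE Cnot9 (0.65) was lost in 6 of the 12 fits without 1 library, and Cnot1 (−0.52) in 3 of them. Cnot1 rose in RNA (0.49), and its footprint difference of −0.04 did not pass. Exosome and Ski complex genes had 3 of 13 higher and 4 lower in RNA, 1 higher and 2 lower in footprints, and 1 lower in TE, against 43.7%, 43.3% and 14.4% called over all genes. Exosc10, the nuclear exosome nuclease, rose in RNA (0.85, SE 0.15), and Exosc4 (−1.49) and Exosc5 (−1.27) of the core fell. The Ski subunit Wdr61 fell in RNA (−0.73, SE 0.29) and footprints (−0.88, SE 0.19). The 4 lower in RNA became 2 without RNA control 3 or RNA HF 2. Exosc10 rose in footprints as well (0.44), which was lost without RPF control 2 or RPF HF 1. The 2 lower in footprints became 1 without RPF control 1 or RPF HF 1 (Exosc4 at −0.60 and −0.63, adjusted p = 0.076 and 0.057). The TE call of the Ski subunit Ttc37 (−1.07) was lost without RNA control 1 or RPF control 2. Ttc37 rose in RNA (1.12), and its footprint difference of 0.05 did not pass.

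Transcripts described as sensitive to NMD formed the last list, 20 genes of which many are also known targets of the stress response to HF. In RNA 18 of 20 rose and 0 fell (median 1.35), against 22.2% higher among all genes, and in footprints 15 of 16 rose and 0 fell (median 1.54), against 22.4% higher. Largest in RNA after Slc7a11, which went from 2 counts in control to 72 in HF libraries, were Atf3 (4.32, SE 0.24), Gadd45a (4.17, SE 0.26) and Ddit3 (3.34, SE 0.37). Tbl2 (0.35, SE 0.23, edgeR adjusted p = 0.21) and the snoRNA host gene Gas5 (0.16, SE 0.14, adjusted p = 0.38) did not pass in RNA. In TE 3 of 16 rose and 0 fell, against 6.14% higher among all genes. They were Atf4 (2.26, SE 0.13), the splicing factor Srsf2 (0.94, SE 0.14) and Ddit3 (1.53, SE 0.53, edgeR adjusted p = 0.043). The Ddit3 call was lost in 11 of the 12 fits without 1 library. The list was chosen with results of these data known, and the part of NMD in these values was not tested.

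**Figure D5:**
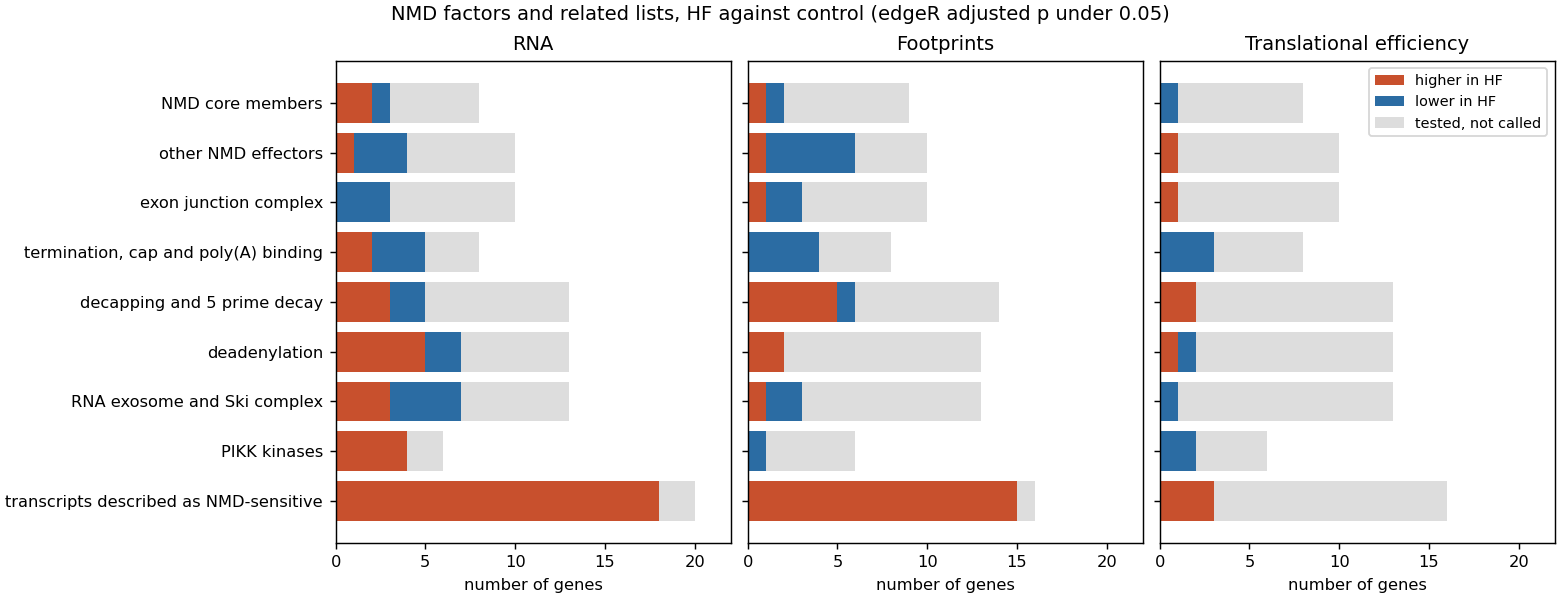
Number of genes (x axis) in each list (y axis) that were higher, lower or not called in HF cells, for RNA, footprints and translational efficiency (edgeR adjusted p under 0.05). The NMD factors had 3 of 8, 2 of 9 and 1 of 8 genes called, and the transcripts described as NMD-sensitive 18 of 20, 15 of 16 and 3 of 16. Over all genes 43.7%, 43.3% and 14.4% were called.

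Over the 12 libraries, the genes whose log2 CPM, centred within each assay, ran most like the mean of the 8 NMD factors tested in both assays were Sun2 (Pearson r = 0.90), AU040320 (0.89), Safb2 (0.88), Got1 (0.88) and Prpf3 (0.88), out of 4469 protein-coding genes with enough counts. These libraries share treatment and depth, so the values are a description. Sun2 had log2 fold changes of 1.11 in RNA and 0.51 in footprints.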

How the data were processed

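Counts per Ensembl gene were deposited by the authors, 1 table per library, with no normalization. Per the submitters' processing notes, Bowtie, HISAT2, HTSeq and build GRCm38 were used. The counted feature, strand setting and handling of multi-mapped reads were not given in the sources used here, and reads on upstream frames may enter a footprint count. Low counts were mostly even (RNA control 1 had 1541 genes at 2 and 419 at 1), so halved counts were an alternative.

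Tests used edgeR 4.0.16 in R 4.3.3 (quasi-likelihood, TMM, filterByExpr minimum count 10, Benjamini-Hochberg adjustment over every gene in the fit, threshold 0.05). The RNA fit held all genes, and the footprint and TE fits the protein-coding genes (21409 by RefSeq type, 38652 of 55536 IDs having a type and 55450 a symbol). TE used TMM within each assay. SEs derive from the F statistic, and 95% intervals are 1.96 SE. Fold changes are relative, as no spike-in is named. DESeq2 1.42.0, other factors and filters and left-out libraries were alternatives. The tests were run on simulated counts with planted changes and a single fixed dispersion, which lack the mostly even low counts of these libraries. Replicates differed beyond counting noise (chi-square per degree of freedom 2.26 to 4.45). Footprints per codon were planned but not computed, as no coding lengths were used here. The factors and lists were chosen with earlier results of these data known. Named were the 9 factors, the 5 genes most like them, and genes from the 4 largest called changes of each list and comparison. Not all genes that this rule allows were named, so a named gene need not have the largest change of its list. Mtor, Tbl2, Gas5 and the values of named genes that did not pass or lay outside this rule were added after values were seen. One gene of the other NMD effectors is not reported here.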

Additional observations from a re-analysis of the deposited data

Results flagged for a closer look

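The log2 change of Smg1 differed between RNA (1.38) and footprints (−0.05). The difference itself, by the interaction term, was −1.42 (SE 0.26, edgeR adjusted p = 7.6e-05). No other NMD factor of the 8 tested in both assays passed this test. With 3 libraries per group, no test for a single library apart from the others was made.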

How the results depend on the processing

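All 4 groups share replicate numbers, but the labels do not say that the numbers pair cultures. Within each assay, deviations of same-numbered control and HF libraries correlated at only −0.0087 to 0.014. Same-numbered RNA and footprint libraries were not compared, and neither the TE test nor its block paired them. With the replicate number as a block, 3933 genes were called in RNA (3992 without it), 3547 in footprints (3622) and 1026 in TE (1138). Under the block the footprint count of NMD factors higher was 0 in place of 1, through Smg6 (0.54, adjusted p = 0.077), and it changed no other call of a factor. That count was also 0 with upper-quartile factors (0.50, adjusted p = 0.089), DESeq2 (0.56, adjusted p = 0.12), no filter (0.56, adjusted p = 0.064) and all genes tested (0.58, adjusted p = 0.057), and 2 with halved counts. Leaving out 1 library, it ran from 0 to 1 and the count lower from 0 to 1. In RNA the factors lower ran from 1 to 2, through Upf3a without RNA control 1. The RNA factors higher ran from 2 to 3, through Smg9 without RNA control 2. Why these libraries moved the counts was not tested. Called genes ran from 3361 to 4032 in RNA, 2917 to 3748 in footprints and 889 to 1209 in TE over all alternatives. No value of a factor reversed with a call on either side. The summed level of the 9 genes in control cells was 865 CPM in RNA and 884 in footprints, and 846 and 867 with library totals. Of 384 list counts without 1 library, 56 moved by over 1.5 times, and of 384 under other settings, 16. Depth limits Upf3b, Upf2 and Smg9 in RNA most, with 10, 52 and 46 control counts.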

Other observations

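Smg1 spans a long stretch of the genome, and this property was tabulated over all protein-coding genes with a span in RefSeq. The median log2 TE change was 0.26 for 1699 genes under 10 kb and −0.28 for 958 genes over 100 kb, where 2.40% rose and 16.1% fell. In RNA the medians were −0.32 and 0.22, and in footprints −0.04 and −0.05. Smg1 spans 113 kb, Upf2 105 kb and Smg6 239 kb, and of these Smg1 alone passed in TE, with Upf2 at −0.32 and Smg6 at 0.41. The part of gene span in the Smg1 result was not tested.

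Chosen after the Smg1 values were seen, the genes whose centred log2 CPM ran most like Smg1 over the 12 libraries were Tnks (Pearson r = 0.96), Slk (0.95), Ppp1r15b (0.95), Klhl9 (0.94) and Cep350 (0.94), of 4469 compared. Tnks, a poly-ADP-ribose polymerase, had log2 fold changes of 1.28 in RNA, 0.10 in footprints and −1.17 in TE, and Cep350, a centrosomal protein, 1.53, 0.13 and −1.39.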
